A study of Mus musculus with 20 samples.

Results

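Fos, Fosb, Jun, Junb, Egr1, Atf3, Dusp1, Zfp36, Klf4 and Hspa1b are immediate-early and stress genes that cells switch on within minutes of a stimulus, enzymatic dissociation of tissue included. These 10 genes of the 39017 identifiers in the count table were picked by symbol, with earlier values of the same libraries in view. Their levels, differences, calls, p-value counts and ranks are therefore given as descriptions and are not read as tests. Tests are given for genes outside the group, on lists that were also chosen with earlier results known. All 10 had counts in both cell types and passed the filter on low counts in every main fit.

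RNA was sequenced from microglia and astrocytes of C57BL/6 mice, sorted from the ipsilateral (left) forebrain 7 days after lateral fluid percussion injury (FPI) or sham surgery (5 libraries per cell type and condition, 20 in all). The mice were males of the C57BL/6J substrain in the study's methods. In FPI a brief pulse of fluid strikes the exposed dura, and sham mice underwent the same craniectomy and were connected to the device without the pulse. Every mouse of every group was perfused with cold buffer, and its forebrain was dissociated with papain at 37° before a Percoll step and cell sorting in the cold, so no library here shows these genes without dissociation. Microglia were gated as CD11b+ CD45 intermediate cells, a gate that leaves out cells of high CD45, and astrocytes by the surface antigen ACSA-2. Library totals ran from 5623349 to 13110857 counts, with group medians of 8188128 (sham microglia), 8054415 (FPI microglia), 9300923 (sham astrocytes) and 7878739 (FPI astrocytes). Levels below are CPM, counts scaled to the library total on 1 TMM scale set over all 20 libraries, and log2 fold changes come from edgeR fits with their standard error (SE). To be called, a gene needed a Benjamini-Hochberg adjusted p below 0.1 and a log2 fold change beyond 0.6 in either direction, the limits used by the study. The defining markers separated the labelled cell types: 10 microglia markers summed to between 18457 and 28515 CPM in microglia and to at most 261 CPM in astrocytes, and 10 astrocyte markers summed to between 10898 and 34545 CPM in astrocytes and to at most 559 CPM in microglia. The astrocyte libraries also held markers of oligodendrocytes (1762 to 18894 CPM over 10 genes) and of pericytes and mural cells (435 to 10646 CPM over 10 genes), and in sham astrocyte library 4 the oligodendrocyte sum of 18894 CPM was above the astrocyte sum of 10898 CPM. In bulk libraries fewer cells of a type and less RNA per cell cannot be told apart.

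Groups of libraries stood apart by their names. The names of microglia libraries 1 to 3 of each condition end in M, and those of libraries 4 and 5 end in J-A, so that the M series holds 3 sham and 3 FPI libraries and the J-A series 2 sham and 2 FPI libraries. What the endings stand for is not given in the sources used here. In the astrocytes, the name of FPI library 5 carries the M ending and the animal number of FPI library 2, against its title and cell type label, which were followed. Gm23935 took 21.7% of the counts of FPI astrocyte library 5, the highest share of the 20 libraries. The part of these shares in the levels below was not tested. By the numbers in the names, 3 animals are behind libraries of both cell types, namely FPI microglia 1 with FPI astrocytes 3, sham microglia 2 with sham astrocytes 4, and sham microglia 3 with sham astrocytes 5.

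Immediate-early genes need no new protein for their transcription. Kinase cascades act on factors that already sit at their promoters, mainly serum response factor with its ternary complex partners and CREB, and the transcripts decay fast once the stimulus ends. Fos, Fosb, Jun, Junb and Atf3 encode basic leucine zipper proteins that pair as AP-1 or related dimers, Egr1 and Klf4 encode zinc finger transcription factors, Dusp1 encodes a phosphatase that switches off MAP kinases, and Zfp36 encodes tristetraprolin, which destabilizes cytokine mRNAs and its own. Hspa1b encodes an inducible HSP70 chaperone, whose transcription depends on heat shock factor 1. In microglia these genes are widely used as a sign of ex vivo activation.

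The bases before the start of 4 of these genes are shown because their transcripts differed in the way they moved between the name series of microglia: Fos and Klf4 were several-fold higher in the M series, Jun was less so, and Hspa1b was lower. Each run is the 250 bases before the RefSeq start on GRCm38.p6, in the direction of transcription, with motif matches in capitals.
Fos (chr12:85473640-85473889, plus strand): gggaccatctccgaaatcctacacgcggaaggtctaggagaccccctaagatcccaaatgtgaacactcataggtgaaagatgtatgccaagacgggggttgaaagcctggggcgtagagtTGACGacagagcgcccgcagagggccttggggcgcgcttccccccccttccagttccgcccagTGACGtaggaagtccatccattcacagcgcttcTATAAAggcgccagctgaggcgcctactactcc
Klf4 (chr4:55532476-55532725, minus strand): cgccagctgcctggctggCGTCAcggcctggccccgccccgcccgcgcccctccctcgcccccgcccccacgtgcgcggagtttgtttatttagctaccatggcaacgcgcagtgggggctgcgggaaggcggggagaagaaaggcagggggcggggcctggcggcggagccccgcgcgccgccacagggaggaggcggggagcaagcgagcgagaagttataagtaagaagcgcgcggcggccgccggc
Jun (chr4:95052223-95052472, minus strand): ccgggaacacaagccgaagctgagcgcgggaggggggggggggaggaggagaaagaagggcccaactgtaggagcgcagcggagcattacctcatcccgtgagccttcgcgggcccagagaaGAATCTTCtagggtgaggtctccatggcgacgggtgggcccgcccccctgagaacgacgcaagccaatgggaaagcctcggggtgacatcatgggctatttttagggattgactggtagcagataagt
Hspa1b (chr17:34959239-34959488, minus strand): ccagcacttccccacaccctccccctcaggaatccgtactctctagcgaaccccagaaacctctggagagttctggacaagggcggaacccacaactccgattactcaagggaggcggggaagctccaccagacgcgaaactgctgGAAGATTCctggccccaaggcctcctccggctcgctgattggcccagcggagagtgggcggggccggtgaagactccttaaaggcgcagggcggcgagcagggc
Capitals mark the CRE core TGACG, the heat shock element pair GAANNTTC or TTCNNGAA, the TATA box TATAAA, and the CArG box, searched on both strands together with the AP-1 motif TGANTCA. The motifs were chosen after these sequences had been read. The CRE core was found in 6 of the 9 genes whose promoters were used here (Fos, Fosb, Junb, Atf3, Dusp1 and Klf4), against 17.8% of 32851 promoters of the same length. Fos held it at positions -129 to -125 and -66 to -62, counted back from the start, with a TATA box at -33 to -28. The heat shock element pair was found in Hspa1b at -104 to -97 and in Jun at -128 to -121, and in 12.8% of all promoters. The CArG box, where serum response factor binds, was found in this window of Zfp36 alone among the 9 genes, at -58 to -49, and in 1.47% of all promoters. The AP-1 motif TGANTCA was found in 0 of 9 genes and in 6.75% of all promoters. Other forms of AP-1 site, in Jun or elsewhere, were not searched and are not covered by this count. A match of letters does not show binding.

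Microglia carried far more of these transcripts than astrocytes. The 10 genes together took 0.303% ± 0.0993 of the scaled library total in microglia (SD, n = 10) and 0.0288% ± 0.0095 in astrocytes (SD, n = 10). Jun was the most abundant in both cell types, at 1386 ± 403 CPM in microglia and 126 ± 21.9 CPM in astrocytes (SD, n = 10 each). Per kilobase of exon, the order of mean levels in microglia was Jun, Fos, Junb, Zfp36, Atf3, Dusp1, Egr1, Klf4, Fosb and Hspa1b. Neighbours in that order overlapped in their ranges, except for Jun, whose lowest library (206 CPM per kilobase) lay above the highest of Fos (185 CPM per kilobase). In astrocytes the order was Jun, Fos, Dusp1, Egr1, Junb, Zfp36, Hspa1b, Klf4, Fosb and Atf3, and all neighbours overlapped. Atf3, induced by stress and injury signals, stood between Zfp36 and Dusp1 in microglia and last in astrocytes.

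All 10 genes were called higher in microglia, where 64.2% of 15077 genes were called in either direction and 27.1% were called higher. The log2 fold change ran from 1.80 (SE 0.37) for Hspa1b to 6.09 (SE 0.52) for Atf3, with a median of 3.14, and the median of all genes was -0.13. The median of all genes was -0.22 with RLE factors and -0.31 in DESeq2, where the median of the 10 genes was 3.05 in both. Atf3 had 58.9 to 353 CPM in microglia and 0 to 5.76 CPM in astrocytes, including 0 counts in sham astrocyte library 1 and FPI astrocyte library 1, which allows up to 3 counts in each. For Jun, Junb, Atf3, Dusp1, Zfp36 and Klf4, 6 of the 10 genes, the lowest microglia library lay above the highest astrocyte library, while 37.5% of genes did not overlap between the cell types, 16.2% with all microglia above. Fos, Fosb, Egr1 and Hspa1b overlapped. For Fos the overlap was between FPI microglia library 5 at 93.4 CPM and FPI astrocyte library 5 at 96.3 CPM. The median of the 10 genes was 3.47 when only the M series stood for microglia and 2.50 when only the J-A series did. Microglial RNA in the astrocyte libraries, scaled from the median marker, amounted to between 0.0346% and 0.532% of the level in microglia, and would account for between 0.438% and 6.31% of the summed astrocyte level of the 10 genes. For single genes with counts the share reached 29.7% in FPI library 1, 17.8% in FPI library 2, 17.1% in FPI library 4 and 15.2% in FPI library 5. In sham libraries it reached at most 10.1%. Atf3, at 0 counts in sham library 1 and FPI library 1, was left out there. The scaled microglial RNA would give 0.16 and 0.64 CPM of Atf3 in these libraries.

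**Figure D1:**
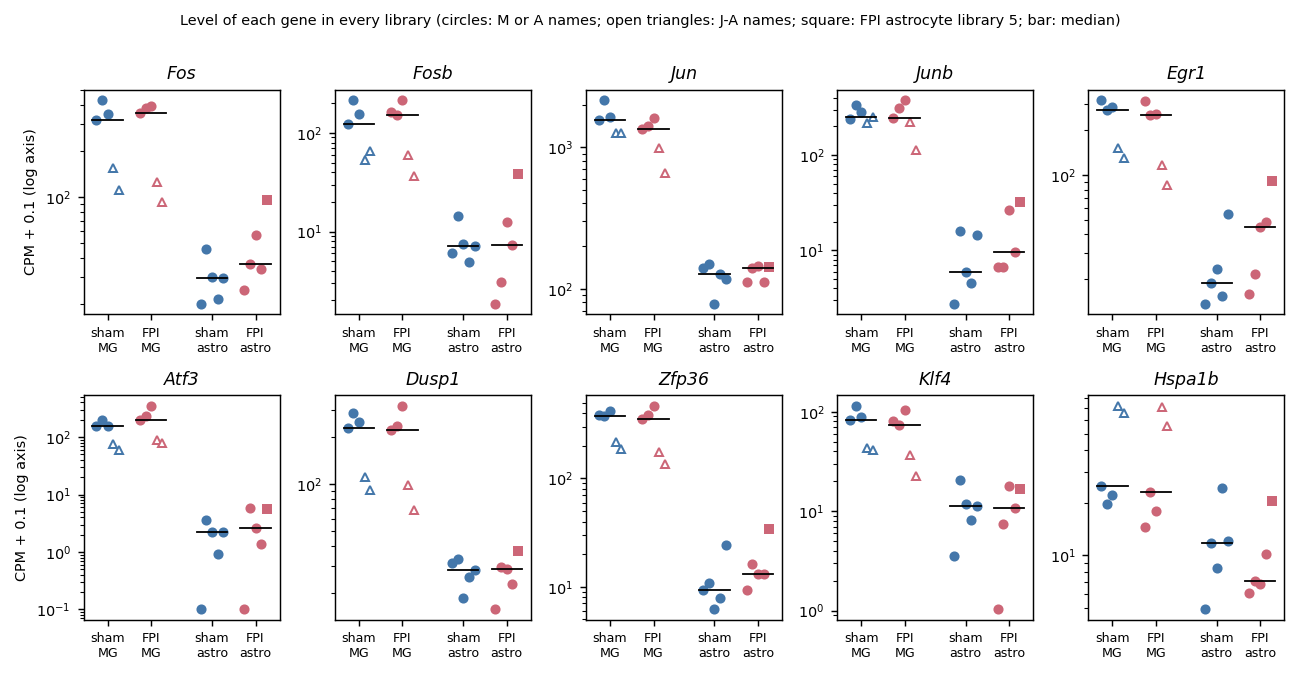
Level of each gene in all 20 libraries in CPM plus 0.1 on a log axis, sham in blue and FPI in red, with bars at the group median. Open triangles are the 4 J-A microglia libraries, which lie below the 6 M libraries for 8 genes, above them for Hspa1b and among them for Junb; the square is FPI astrocyte library 5.

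Among the microglia, the name series separated these genes. Fos, the main AP-1 partner of the Jun proteins, stood at 319, 434 and 349 CPM in sham libraries 1 to 3 and at 155 and 112 CPM in sham libraries 4 and 5. It stood at 358, 382 and 393 CPM in FPI libraries 1 to 3 and at 125 and 93.4 CPM in FPI libraries 4 and 5. All 6 M libraries were above all 4 J-A libraries, in sham and in FPI mice alike. The means were 372 ± 40.0 CPM (SD, n = 6) and 122 ± 25.97 CPM (SD, n = 4). The fitted log2 fold change was 1.60 (SE 0.13), and Fos had the smallest p-value of the 13851 genes fitted between the series, which is given as its rank and not as a test.

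Dusp1, the feedback phosphatase, followed the same split. It had 228, 288 and 253 CPM in sham M libraries against 112 and 92.0 CPM in sham J-A libraries. In FPI mice it had 224, 237 and 320.1 CPM in M libraries against 98.3 and 68.5 CPM in J-A libraries. The log2 fold change was 1.47 (SE 0.14). Zfp36, the mRNA decay factor, averaged 399 ± 40.7 CPM in the M series (SD, n = 6) and 179 ± 33.9 CPM in the J-A series (SD, n = 4), for a fitted difference of 1.15 on the log2 scale (SE 0.13).

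The other AP-1 genes differed in size. Fosb ran from 123 to 217 CPM in the M series and from 36.4 to 66.1 CPM in the J-A series (log2 fold change 1.66, SE 0.18). Atf3 ran from 154 to 353 CPM and from 58.9 to 88.9 CPM (1.46, SE 0.15). Jun, whose transcript level was the highest throughout, ran from 1350.5 to 2159 CPM and from 658 to 1267 CPM, and its log2 fold change was 0.64 (SE 0.13). Junb was the exception, with 239 to 379 CPM in the M series and 113 to 250.9 CPM in the J-A series: sham J-A library 5, at 250.9 CPM, lay above M libraries at 239 and 245 CPM. Its log2 fold change was 0.57 (SE 0.17), below the limit of 0.6. Of the zinc finger factors, Egr1 averaged 285 ± 28.5 CPM (SD, n = 6) against 122 ± 27.7 CPM (SD, n = 4), and Klf4 averaged 91.2 ± 15.7 CPM (SD, n = 6) against 36.0 ± 9.30 CPM (SD, n = 4). Their log2 fold changes were 1.23 (SE 0.14) and 1.34 (SE 0.17).

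Hspa1b went the other way. It had 24.7, 19.6 and 21.95 CPM in sham M libraries and 72.3 and 65.7 CPM in sham J-A libraries. In FPI mice it had 14.4, 23.1 and 17.8 CPM in M libraries and 70.5 and 54.8 CPM in J-A libraries. The highest M library, at 24.7 CPM, was below the lowest J-A library, at 54.8 CPM, and the log2 fold change was -1.72 (SE 0.17). Its paralog Hspa1a has a transcript 90.7% identical to that of Hspa1b over 2771 aligned bases. Hspa1a averaged 30.4 ± 8.48 CPM in the M series (SD, n = 6) and 42.6 ± 15.6 CPM in the J-A series (SD, n = 4). Its difference of -0.48 on the log2 scale (SE 0.24) was not called (edgeR adjusted p = 0.801). Of the 2654 stretches of 150 bases in the Hspa1b transcript, the length of 1 sequenced read, 40.5% occur unchanged in Hspa1a, so reads may be split between the pair or dropped in the counting and each gene's own level is uncertain. The sum of both genes ran from 35.9 to 57.1 CPM in the M series and from 74.8 to 127 CPM in the J-A series, without overlap.

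In all, 8 of the 10 genes lay wholly above and 1 wholly below in the M series. Over all genes 1.6% did not overlap between the series, 1.13% with all M libraries above and 0.469% with all below. By the thresholds 9 of the 10 genes were called, while 0.534% of all genes were. These genes were chosen with this contrast known, so nothing is read from either count. Without 1 library at a time, 8 or 9 of the 10 genes were called.

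**Figure D2:**
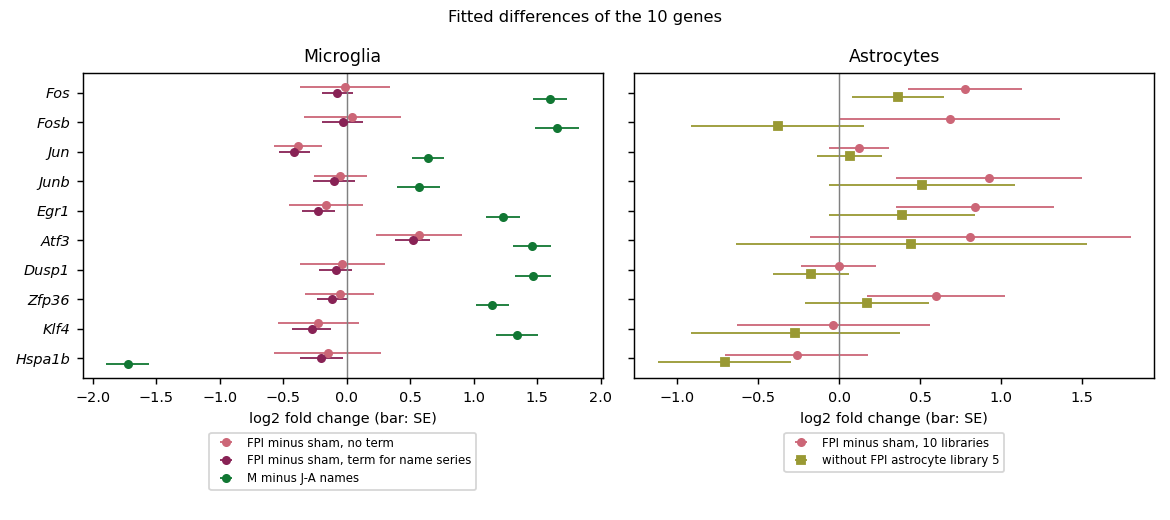
Log2 fold change of each gene with its SE as the bar, for microglia on the left (FPI minus sham without and with a term for the name series, and the M series minus the J-A series) and for astrocytes on the right (FPI minus sham, with and without FPI astrocyte library 5). In microglia the difference between the name series runs from -1.72 to 1.66, and that of FPI from -0.38 to 0.57 without the term and from -0.41 to 0.52 with it.

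Genes of other lists were compared between the series too. These lists were chosen with earlier results known, so their calls do not measure how far the split reached. Of 30 tested genes on a list of other immediate-early genes, 5 were called higher in the M series and 0 lower. Over all 13851 genes, 60 were called higher and 14 lower. The list's median log2 fold change was 0.48, against -0.01 over all genes and 0.58 over 10 astrocyte markers. The called genes were Ier2, an early nuclear regulator (0.82, SE 0.17, adjusted p = 0.0236), the orphan nuclear receptor Nr4a1 (1.11, SE 0.26, adjusted p = 0.0678), the zinc finger factor Klf6 (0.65, SE 0.12, adjusted p = 0.0121), Csrnp1 (1.02, SE 0.24, adjusted p = 0.0584) and the clock gene Per1 (0.86, SE 0.19, adjusted p = 0.0476), all by edgeR. The 2 largest differences of the list belonged to the matricellular gene Cyr61 (2.36, SE 0.73, adjusted p = 0.3) and to Nr4a2 (1.82, SE 0.94), which were not called. Leaving out sham library 1, sham library 5, FPI library 2 or FPI library 5 of the microglia left 3 calls on the list, and leaving out FPI library 4 left 2.

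Of 17 feedback regulators 11 were higher and 6 lower, with a median of 0.17. Nfkbiz, a nuclear regulator of NF-κB, was called by edgeR (0.82, SE 0.15, adjusted p = 0.0085). Cish (1.73, SE 1.52), Dusp4 (-1.20, SE 1.11) and Dusp2 (-1.06, SE 0.64) differed more in size without being called. Of 17 cytokine and activation genes known from cell isolation, the chemokine Ccl3 (0.97, SE 0.18, adjusted p = 0.00758) and the G-protein regulator Rgs1 (1.01, SE 0.22, adjusted p = 0.0423) were called. Ptgs2 (2.37, SE 0.87), Cxcl2 (2.03, SE 1.35) and Il1b (1.70, SE 0.51) had the largest differences of that list and were not called. The list of 19 heat shock genes had a median of 0.20 and 1 call, the co-chaperone Stip1 (0.74, SE 0.18, adjusted p = 0.0796), a direction opposite to that of Hspa1b, and the call was lost without any of 9 of the 10 libraries in turn. Among 16 genes of the unfolded protein and integrated stress responses edgeR called 0, with 3 at an unadjusted p below 0.05 and 0 called by DESeq2. Among 24 upstream kinases and factors edgeR called 0, with 1 at an unadjusted p below 0.05 and 0 called by DESeq2, and their median was -0.02. Over all these lists 9 genes were called, and without FPI microglia library 4 or 5 there were 4 and 5.

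**Figure D3:**
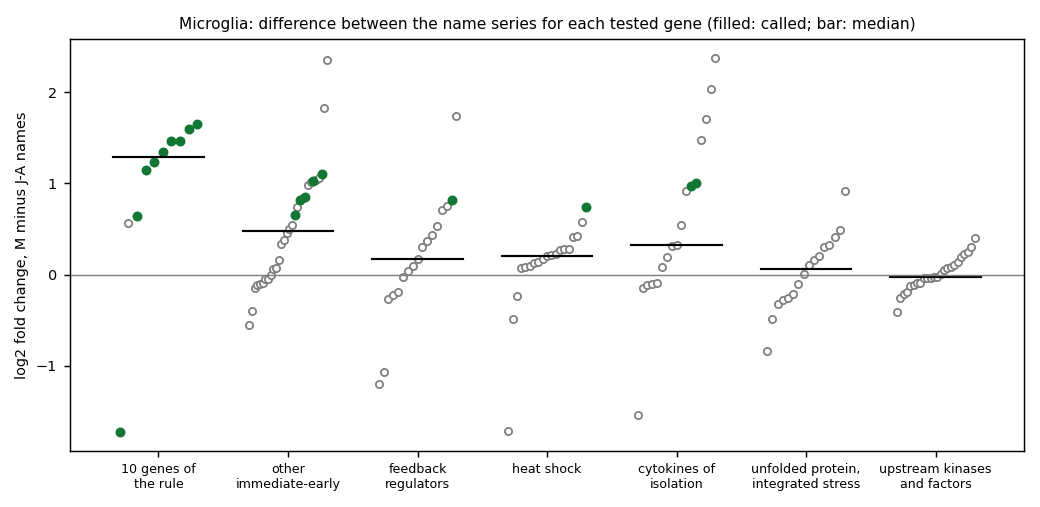
Log2 fold change of the M series over the J-A series for each tested gene of the 10 genes and of 6 lists, with called genes filled and a bar at the median. The medians are 1.28 for the 10 genes, 0.48 for other immediate-early genes and -0.02 for upstream kinases and factors.

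Markers of border macrophages moved with the name series as well. Of 9 tested markers of monocytes and border macrophages, 5 were called higher in the M series: Cd163 (4.41, adjusted p = 1.98e-06), F13a1 (3.79, adjusted p = 2.81e-05), Mrc1 (2.85, adjusted p = 7.03e-05), Pf4 (5.17, adjusted p = 0.000259) and Lyve1 (2.77, adjusted p = 0.0544). The 10 markers summed to between 150 and 462 CPM in M libraries and to between 22.7 and 66.99 CPM in J-A libraries, and the monocyte marker Ly6c2 was at 0 in all 10. The 10 microglia markers summed to between 18457 and 28187 CPM and to between 23156 and 28515 CPM, with 0 of 10 called by edgeR, 1 at an unadjusted p below 0.05. Of 10 astrocyte markers 9 were higher in the M series, with a median of 0.58 and 3 at an unadjusted edgeR p below 0.05. The medians were 0.61 for 6 oligodendrocyte precursor markers, 0.96 for 6 neuron markers and 0.24 for 8 mural markers. They were 0.15 for 10 endothelial markers and -0.24 for 8 oligodendrocyte markers, and edgeR called 0 in each of these sets. The part of the cells behind these markers, of the sort or of handling in the difference of the 10 genes was not tested.

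In the fit without a term for the name series, most of the 10 genes differed little between FPI and sham microglia. The SE of that fit holds the spread between the series, and values with the term are given below. For all 10 genes the sham and FPI libraries overlapped, while 3.43% of 12143 genes did not overlap. By the thresholds edgeR called 0 of the 10 genes, and 2.35% of all genes were called. At an unadjusted p below 0.05 the count was 0 in that edgeR fit, and DESeq2, also without the term, called 0. The median log2 fold change of the 10 genes was -0.05. Fos averaged 274 ± 136 CPM in sham and 270.3 ± 148 CPM in FPI mice (SD, n = 5 each), for a fitted difference of -0.01 on the log2 scale (SE 0.36). Fosb (0.05, SE 0.38), Dusp1 (-0.04, SE 0.33), Junb (-0.05, SE 0.21) and Zfp36 (-0.06, SE 0.27) were as near to 0. Egr1 (-0.16, SE 0.29), Hspa1b (-0.15, SE 0.42) and Klf4 (-0.22, SE 0.32) were lower by less than their SE.

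Atf3 and Jun had the largest differences. Atf3 had 154, 195, 158, 76.2 and 58.9 CPM in sham libraries 1 to 5 and 199, 234, 353, 88.9 and 78.6 CPM in FPI libraries 1 to 5. Its groups overlapped over both series but not within either: the lowest FPI library was above the highest sham library in the M series (199 against 195 CPM) and in the J-A series (78.6 against 76.2 CPM). Its log2 fold change was 0.57 (SE 0.34), and 0.52 (SE 0.14) with a term for the name series. Jun had 1559.7, 2159, 1625, 1267 and 1256 CPM in sham libraries 1 to 5 and 1350.5, 1401, 1603, 979.8 and 658 CPM in FPI libraries 1 to 5. Its groups overlapped in the M series, by the FPI library at 1603 CPM and the sham library at 1559.7 CPM, and not in the J-A series. Its log2 fold change was -0.38 (SE 0.19), and -0.41 (SE 0.13) with the term. Separation within a series, for Atf3 or Jun, rests on 3 libraries per condition (M) or 2 (J-A). Its share over all genes was not determined, so nothing is read from it.

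Within the M series alone, Atf3 differed by 0.61 (SE 0.18) and Jun by -0.31 (SE 0.14), and within the J-A series alone by 0.36 (SE 0.20) and -0.58 (SE 0.19). The series differed in the sign of the median of the 10 genes, which was 0.01 in the M series, with 4 genes below 0, and -0.29 in the J-A series, with 9 below 0. With the term for the name series it was -0.11, 9 were below 0, and the median SE shrank from 0.33 to 0.13. Without the term, leaving out 1 library at a time put Atf3 between 0.25 and 0.75 and Jun between -0.49 and -0.25. In none of the fits run was any of the 10 genes called for FPI.

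Genes of the other lists, chosen like the 10 genes with earlier results known, were tested over all genes without a term for the name series. Of 29 other immediate-early genes edgeR called 0 for FPI in microglia, with 5 at an unadjusted p below 0.05 and 3 called by DESeq2, and their median was -0.00. Cyr61 (-1.95, SE 0.78, adjusted p = 0.294), Maff (1.77, SE 0.58, adjusted p = 0.152) and Bhlhe40 (1.27, SE 0.42) had the largest differences. Of 16 cytokine and activation genes, 4 were called higher: Ccl12 (1.16, SE 0.19, adjusted p = 0.00177), Cd83 (0.83, SE 0.14, adjusted p = 0.00158), the receptor Tlr2 (0.75, SE 0.15, adjusted p = 0.0088) and the interferon-induced chemokine Cxcl10 (1.66, SE 0.45, adjusted p = 0.0676), and the median of the list was 0.66. None of these 4 was called between the name series, where the difference of Ccl12 was -0.12 (SE 0.19). Of 19 heat shock genes Hspe1, a mitochondrial chaperonin, was called higher (0.88, SE 0.19, adjusted p = 0.0156). EdgeR called 0 of 16 feedback regulators (4 at an unadjusted p below 0.05), 0 of 14 unfolded protein and integrated stress genes (0 at that p) and 0 of 24 upstream kinases and factors (1 at that p), and DESeq2 called 0 of each. Their largest differences were those of Dusp4 (-1.20, SE 0.90), Atf5 (0.49, SE 0.64) and Batf (0.45, SE 0.59).

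The spread between microglia of 1 group followed the name series. The pooled SD of log2 CPM within the sham and FPI groups was 0.80 in the median over the 10 genes and 0.38 over all tested genes. Within groups and name series it was 0.23 and 0.35. Hspa1b (0.97), Fosb (0.96) and Fos (0.90) had the largest SD within the groups, and Jun (0.40) and Junb (0.47) the smallest. Within the series Fos fell to 0.19, Hspa1b to 0.24 and Zfp36 to 0.16, while Junb (0.34) and Fosb (0.33) were the widest. Junb was the gene whose spread the series altered least.

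**Figure D4:**
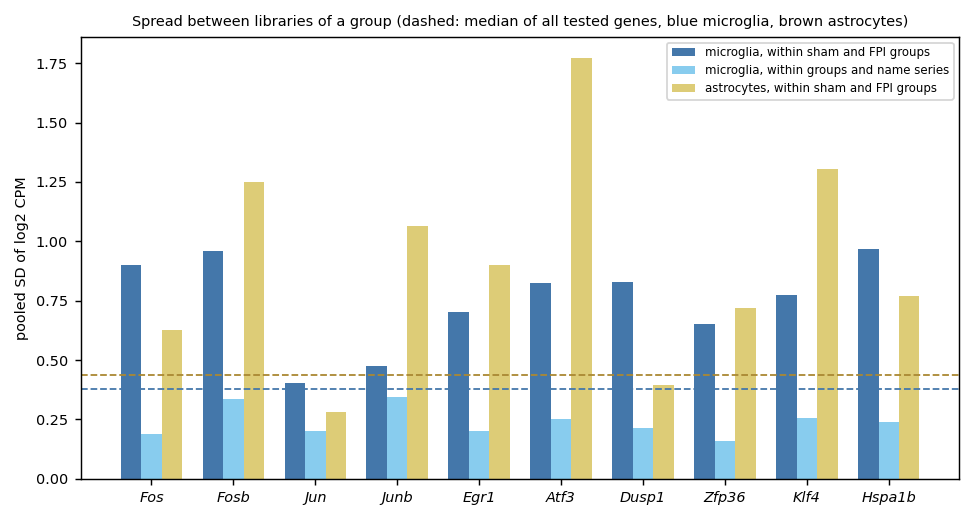
Pooled SD of log2 CPM between libraries of a group for each gene, in microglia within the sham and FPI groups, in microglia within groups and name series, and in astrocytes. Dashed lines are the medians of all tested genes at 0.38 in microglia and 0.44 in astrocytes, and the light blue bars of all 10 genes lie below 0.38.

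Summed over the 10 genes, the level was 3311 to 4415 CPM in the 6 M libraries and 1345 to 2361 CPM in the 4 J-A libraries. Single libraries stood out within the series: FPI microglia library 3 was the highest of 10 for 5 genes, and FPI microglia library 5 the lowest of 10 for 8 genes. In sham mice the sum averaged 3223 ± 909 CPM and in FPI mice 2842 ± 1141 CPM (SD, n = 5 each), a difference well within the spread.

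After removal of the group means, Klf4 (r = 0.99) and Dusp1 (r = 0.99) followed the mean of the other 9 genes most closely over the 10 microglia libraries and Junb least of those with a positive r (r = 0.85), while Hspa1b ran against it (r = -0.94). These libraries share the 2 name series, and with the series means removed too the r was 0.94 for Dusp1, 0.90 for Klf4, 0.06 for Egr1 and 0.03 for Hspa1b. The genes outside the group whose levels followed it most closely in microglia were Nfkbiz (r = 0.98), Ccdc96, Crybg3, Ifrd1, Rsf1, Fam71a, Banp, Ier2 and Lilrb4 (r = 0.95 for the last), over 10 libraries. In astrocytes they were Kctd10 (r = 0.98), Myd88, Aldh1a2, Rpl13a, Spire2, Uaca, Tax1bp3, Irf9, Axin2 and Lsm4 (r = 0.95 for the last), over 10 libraries that include FPI library 5.

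In astrocytes the levels were low and uneven, with 1 library above the rest. FPI astrocyte library 5 had the highest level of 10 for 6 genes and a sum of 512 CPM, against 191 to 354 CPM in the other 9 libraries. Fos had 20.1, 45.8, 29.9, 21.5 and 29.4 CPM in sham libraries 1 to 5 and 24.5, 36.4, 56.3, 33.8 and 96.3 CPM in FPI libraries 1 to 5. Egr1 had 13.5, 18.6, 23.2, 15.2 and 54.6 CPM in sham and 15.7, 21.7, 44.9, 48.4 and 90.6 CPM in FPI libraries. For both genes FPI library 5 was the highest, FPI library 1 lay near the lowest sham libraries, and the groups overlapped.

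**Figure D5:**
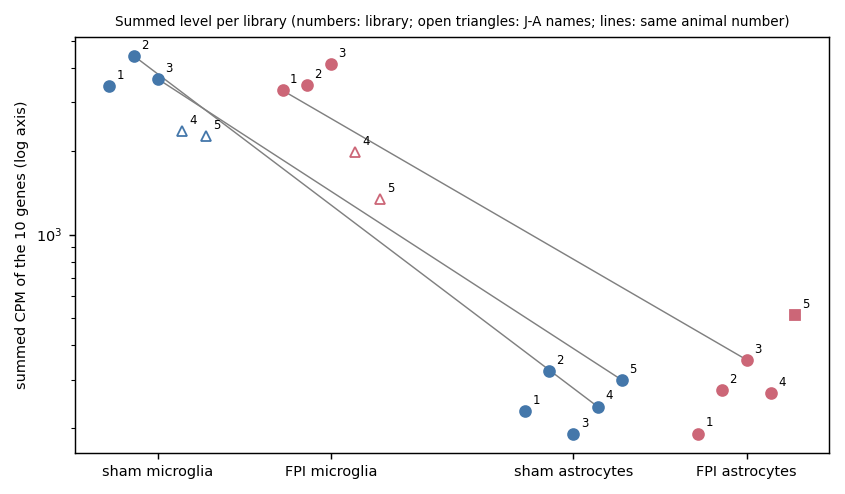
Summed CPM of the 10 genes in each library on a log axis, sham in blue and FPI in red, with numbers for the library and lines joining libraries of the same animal number. Microglia lie between 1345 and 4415 CPM and astrocytes between 191 and 512 CPM, with FPI astrocyte library 5 (square) at 512 CPM.

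The groups overlapped for all 10 genes in astrocytes, where 0.713% of 13741 genes did not overlap. By the thresholds edgeR called 0 of the 10 genes, and 1 of all 13741 genes (0.00728%) was called. DESeq2 also called 0 of the 10 genes, and it called 39 of 22690 genes. With so few calls among all genes, 0 of 10 does not set the 10 genes apart from other genes. At an unadjusted edgeR p below 0.05 the count was 1 of the 10 genes. Of the 10 genes 7 were higher in FPI mice, with a median of 0.64, and the largest differences were those of Junb (0.92, SE 0.57), Egr1 (0.84, SE 0.49), Atf3 (0.81, SE 0.99), Fos (0.78, SE 0.35) and Fosb (0.69, SE 0.68). Zfp36 (0.60, SE 0.42) was next, and Jun (0.12, SE 0.18), Dusp1 (-0.00, SE 0.23), Klf4 (-0.04, SE 0.59) and Hspa1b (-0.26, SE 0.44) were near or below 0. Without FPI astrocyte library 5 the median was 0.12, and Fos fell to 0.36 (SE 0.29), Egr1 to 0.39 (SE 0.45), Junb to 0.51 (SE 0.58) and Fosb to -0.38 (SE 0.53). With FPI libraries 2 and 5, which share an animal number, summed into 1 library, the median was 0.36. It was 0.33 with a term for the other immediate-early genes, with 4 genes below 0, and 0.38 with a replicate block. Microglia markers also moved with FPI in these libraries, with 7 of 7 tested higher at a median of 2.96 and a summed level of 124 to 261 CPM in FPI and 105 to 181 CPM in sham astrocytes, beside the shares given above. Oligodendrocyte precursor markers (7 of 8 tested higher, median 0.57, with Gpr17 at 4.14 and Tnr at 2.88) and pericyte and mural markers (10 of 10 tested higher, median 0.33) were higher too, and none of these markers was called by edgeR. Of the microglia markers 4, of the precursor markers 3 and of the mural markers 0 had an unadjusted edgeR p below 0.05. FPI library 5 had the highest sums of precursor and mural markers, 1442 and 10646 CPM. The part of the cells behind any of these markers in these differences was not tested.

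Jun and Dusp1 were the steadiest of the 10 genes in astrocytes. Jun had 139.8, 148, 78.3, 128 and 116 CPM in sham and 112, 141, 145, 112 and 141 CPM in FPI libraries, a pooled SD of 0.28 on the log2 scale against 0.44 for the median gene. Dusp1 had 15.6 to 36.9 CPM over all 10 libraries and an SD of 0.39. Atf3 (1.77), Klf4 (1.30), Fosb (1.25) and Junb (1.07) had the widest spread, and the median of the 10 genes was 0.83. Hspa1b had its highest level, 24.1 CPM, in sham library 4, which was among the lowest for Atf3 at 0.821 CPM. In that animal, by its number the one of sham microglia library 2, Hspa1b had 19.6 CPM in microglia and 24.1 CPM in astrocytes, while Fos had 434 and 21.5 CPM.

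The other lists held no called gene for FPI in astrocytes by edgeR. Of 28 other immediate-early genes 0 were called, with 0 at an unadjusted p below 0.05 and 0 called by DESeq2, and the median was 0.07. The largest differences there were those of Maff (1.22, SE 0.91), Nr4a3 (-0.81, SE 0.49) and Klf2 (0.71, SE 0.83). Socs3, an inhibitor of cytokine signalling, was the feedback regulator with the largest difference (1.55, SE 0.40, adjusted p = 0.999), which edgeR did not call and DESeq2 called. Of 4 tested cytokine and activation genes Cxcl10 (2.19, SE 0.72) and Icam1 (1.92, SE 0.69) were the highest, and 2 had an unadjusted p below 0.05. Hspb1 (0.68, SE 0.68), Sesn2 (-0.63, SE 0.34) and Rps6ka1 (0.56, SE 0.31) led the heat shock, stress response and upstream lists, with 0 at an unadjusted p below 0.05 in each.

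The difference in the FPI effect between the cell types was fitted over all 20 libraries. EdgeR called 0 of the 10 genes, with 0 at an unadjusted p below 0.05 and 0 called by DESeq2, while 0.199% of 15077 genes were called. The median of microglia minus astrocytes was -0.54, and it was -0.10 without FPI astrocyte library 5. The largest was that of Egr1, at -0.99 (SE 0.65).

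Where the counting could mix genes, the values carry a further limit. Exons of Jun share 7.27% of their bases with the antisense gene Junos, those of Junb 7.52% with Prdx2, those of Zfp36 3.60% with Gm44710 and those of Dusp1 0.332% with Ergic1, all on the opposite strand. The kit keeps the strand, but the setting used in counting is not given in the sources used here. In GRCm38, by GENCODE M21, Fos lies at chr12:85473890-85477273, Fosb at chr7:19302696-19310051, Jun at chr4:95049034-95052222, Junb at chr8:84974484-84978718, Egr1 at chr18:34859823-34864984, Atf3 at chr1:191170296-191218039, Dusp1 at chr17:26505590-26562128, Zfp36 at chr7:28376784-28380253, Klf4 at chr4:55527143-55532466 and Hspa1b at chr17:34956436-34959238, each a protein-coding gene counted over its exons.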

How the data were processed

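RNA of sorted microglia and astrocytes was measured in 20 libraries, 5 for each cell type and condition, each from a single animal. The authors deposited raw gene counts as whole numbers for 39017 Ensembl identifiers, made per the labels with HISAT2 2.1.0 on GRCm38.p6 (mm10) and featureCounts, whose version and strand setting are not given in the sources used here. Columns were matched to samples by library name, and titles gave the groups and replicate numbers. No identical libraries were found.

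The deposited counts of 1 cell type at a time went through edgeR 4.0.16 (R 4.3.3), with its default filter for low expression, TMM factors and the quasi-likelihood test of condition, followed by Benjamini-Hochberg adjustment over all tested genes. The cell types, and their FPI effects, were compared in 1 fit over 20 libraries, taken as independent although 4 animal numbers occur on 2 libraries each, 3 across the cell types and 1 on FPI astrocyte libraries 2 and 5. The name series was fitted with condition as a covariate. Fold changes used a prior count of 0.125, and log2 CPM for SDs and likeness a prior of 2. Tables and figures used Python 3.11.15, numpy 2.4.6, pandas 2.3.3 and matplotlib 3.10.9.

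The 10 genes and the other lists were chosen with earlier results of these data known. Named genes are the 10, the called genes of each list, the 3 of largest absolute log2 fold change of a list, and the 10 of highest r with the mean of the 10, of which 1 in microglia is not reported here. Of 222 list entries 220 were matched. Promoters come from RefSeq on GRCm38.p6, matched by symbol, and 9 were used. In simulated counts for the microglia contrast of 12143 genes, 62 of 100 genes changed by a log2 fold of 1 and 84 of 100 changed by 2 were called, with 14 false calls; for the astrocyte contrast of 13741 genes these were 30 and 74, with 10 false calls. Alternatives were DESeq2 1.42.0, RLE factors, a looser and a stricter filter, robust empirical Bayes, another prior count, a stricter p, a replicate block, terms for the name series and for the other immediate-early genes, each series alone, summed libraries, 1 fit of all libraries, and each library left out. Fits within the J-A series, with both terms, of 1 series against astrocytes, and leaving out libraries in the fits over both cell types were added after seeing the data.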

Additional observations from a re-analysis of the deposited data

Results flagged for a closer look

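Of 40 groups of 5 libraries (10 genes, 2 cell types and 2 conditions), 6 held a library whose distance to its nearest neighbour was more than 0.71 of the group's range, where chance gives about 1 in 20, and all 6 were astrocyte groups. The groups share libraries and the genes were chosen with their spread known, so the number of such groups is a description. FPI astrocyte library 5 was the high one for Fosb (38.7 CPM, the others 1.75 to 12.3), Zfp36 (34.0 CPM, the others 9.17 to 16.3) and Hspa1b (20.3 CPM, the others 5.98 to 10.1). Sham astrocyte library 5 was the high one for Egr1 (54.6 CPM, the others 13.5 to 23.2) and Zfp36 (24.0 CPM, the others 6.06 to 10.6). Sham astrocyte library 2 was the high one for Fosb (14.2 CPM, the others 4.82 to 7.42). FPI astrocyte library 5 is the library whose name carries a microglia ending, and at 0.532% it had the largest share of the microglial marker level among the astrocyte libraries. It also had the highest summed level of oligodendrocyte precursor markers (1442 CPM, the other 9 astrocyte libraries 310 to 855 CPM) and of pericyte and mural markers (10646 CPM, the others 435 to 7817 CPM). The part of these cells and of the name in its levels was not tested.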

How the results depend on the processing

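Of the summary results, 228 of 230 values with 1 library left out and 107 of 115 values under other settings stayed within the spread between libraries or, for counts, within 1.5 times the count reported. The median of the 10 genes for FPI in microglia, -0.05, did not keep its sign: it was 0.01 in the M series alone and ran from -0.23 to 0.12 with 1 library left out, above 0 without sham library 1, 2 or 3 or FPI library 4 or 5. The 10 genes gave 0 calls for FPI in both cell types and all 10 calls between the cell types in every setting run. As these genes were chosen with earlier values known, both counts are descriptions. The number of other list genes called for FPI in microglia, 5 in the fit reported, was 9 with DESeq2, 8 with the filter lowered to 1 count, 9 in the M series alone, 0 in the J-A series alone and 1 in the fit over all 20 libraries, and 4 to 7 with 1 library left out; the causes were not tested, except that the series alone hold fewer libraries. For FPI in astrocytes and for the difference between the cell types it was 1 with DESeq2 each, against 0, and the cause was not tested. The number called between the name series, 9, ran from 4 to 12 with 1 library left out. The median of the 10 genes between the cell types was 2.50 with microglia of the J-A series alone, which hold less of 8 of them.

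Same-numbered sham and FPI libraries came from different animals by the names. Their deviations correlated between -0.07 and 0.09 in microglia and between -0.01 and 0.45 in astrocytes, where 4 of 5 pairs were above 0.1, and 3 of 10 and 7 of 10 libraries correlated best with their own number. With a replicate block 255 genes were called in microglia against 285 and 11 in astrocytes against 1, and the medians of the 10 genes were -0.12 and 0.38. The block could not be fitted between the name series, which the numbers define. With at least 10 counts in every library, 8 of the 10 genes were left in astrocytes, and their median was 0.64.

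Depth limits Atf3 most in astrocytes, at 0 to 46 counts per library. P-values measure the spread between libraries. By the names, FPI astrocyte libraries 2 and 5 share an animal, and 3 animals gave libraries of both cell types, all taken as independent.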
